A study of Drosophila melanogaster with 12 samples.

Results

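The Toll pathway and the protease cascade that feeds it were followed here through 10 genes, chosen by name: the ligand gene *spz*, the receptor gene *Tl*, the serine protease genes *modSP*, *grass*, *psh* and *SPE*, the serpin gene *nec*, the inhibitor gene *cact*, and the transcription factor genes *dl* and *Dif*. All 10 were found among the 17521 genes of the deposited table, and all 10 passed the filter on low values, which kept the genes that reached 1 CPM in 2 or more samples (CPM, counts per 1000000 reads on genes, with the normalization of the deposited values). All 10 would also have passed it on the tumours and control discs alone. The rule goes by their names and uses no measured value, but the genes were chosen with earlier results of these data known.

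In this pathway, microbes outside the cell are detected by circulating recognition proteins or by their proteases, and a chain of serine proteases in the haemolymph ends with the cleavage of Spätzle. Cleaved Spätzle binds the receptor Toll, an adaptor and kinase complex inside the cell leads to the loss of Cactus, and the NF-κB-type factors Dorsal and Dif enter the nucleus. The pathway sets the dorsoventral axis of the fly embryo, and in the fat body and the blood cells of larvae and adults it drives genes of antimicrobial peptides. Messenger RNA levels, which were measured here, do not report the cleavage of Spätzle or the movement of Dorsal and Dif.

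RNA was sequenced from 12 samples in 5 groups. Metamorphed *ph505* cells (3 samples) were GFP-marked *ph505* clones taken from adult flies. *ph505* tumours (2 samples at each age) were pieces of mutant eye disc grown in the abdomen of adult hosts and moved to a new host every week, collected at 4, 8 and 14 weeks. Control discs (3 samples) were wild-type eye discs of larvae in the last instar, collected 1 day after they had been transplanted into an adult abdomen. Neither *ph-p* nor *ph-d*, the 2 neighbouring genes of the Polycomb group protein Polyhomeotic, is functional in *ph505* cells. The clones were made with a flippase driven by an *eyeless* fragment, which is also active in the leg discs and the genital disc, so metamorphed cells need not derive from the eye disc. The hosts were adult *w1118* females, and the tumours and the control discs had been in contact with host haemolymph, while the metamorphed cells had formed in the fly that carried them. No wild-type cells that had gone through metamorphosis were sequenced, so genotype and stage cannot be told apart between metamorphed cells and control discs. The libraries of the metamorphed cells were run on another instrument than all others, and instrument and group cannot be told apart either. The RNA samples were collected independently, as the study's methods state, but the number of animals in each is not given in the sources used here.

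Reads on genes ranged between 66046651 and 81447816 in the 3 metamorphed samples, between 16619078 and 24144498 in the 6 tumours, and between 2072498 and 26137216 in the 3 control discs. The lowest total was that of control replicate 1, where 3 reads correspond to 1.18 CPM, against 0.042 CPM in the deepest library. Levels near these floors are measured with little precision, and the floors cover counting error only. All tests were made with limma on log2(CPM + 1) over 10177 genes, with 1 model for all 5 groups, p-values adjusted after Benjamini and Hochberg over all of these genes and a threshold of 0.05. The addition of 1 CPM makes the differences of weakly expressed genes smaller than they are on the CPM scale. Where all tumours are compared, each of the 3 ages counts the same.

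The labels were set against marker genes. The summed level of 9 eye disc genes was 77.8 to 140 CPM in metamorphed cells, 37.2 to 84.7 CPM in tumours and 1135 to 1362 CPM in control discs, and the proneural gene *ato* was at 0 reads in all 3 metamorphed samples. The sum of these markers was thus far lower in metamorphed cells and tumours than in control discs. Not all 9 fell alike: *dac* stood at 24.7 to 37.3 CPM in metamorphed cells, 8.19 to 42.5 CPM in tumours and 49.8 to 76.4 CPM in control discs. A list of 11 fat body genes, among them larval serum proteins and yolk proteins, summed to 2490 to 10604 CPM in metamorphed cells, to 1.01 to 14.5 CPM in tumours, where *Fbp1*, *Fbp2*, *Lsp1alpha* and *Lsp1beta* were at 0 reads in all 6, and to 158 to 988 CPM in control discs, where *Fbp1* was at 0. All 11 fat body genes were higher in metamorphed cells than in control discs, as were 8 of 11 haemocyte genes, which summed to 711 to 1214 CPM in metamorphed cells, 46.9 to 108 CPM in tumours and 106 to 243 CPM in control discs. Among all genes tested, 21.6% were higher in metamorphed cells than in control discs. On the tumours and control discs alone, 7 of the 11 fat body genes and 9 of the 11 haemocyte genes would have passed the filter. The others passed only with their level in metamorphed cells, which favours calls as higher, so no weight rests on the counts of genes called. Since the fat body and the blood cells are where much of the Toll pathway is known to act, these sums stand beside every result below. In bulk samples, more cells of a type and more RNA per cell cannot be told apart.

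**Figure D1:**
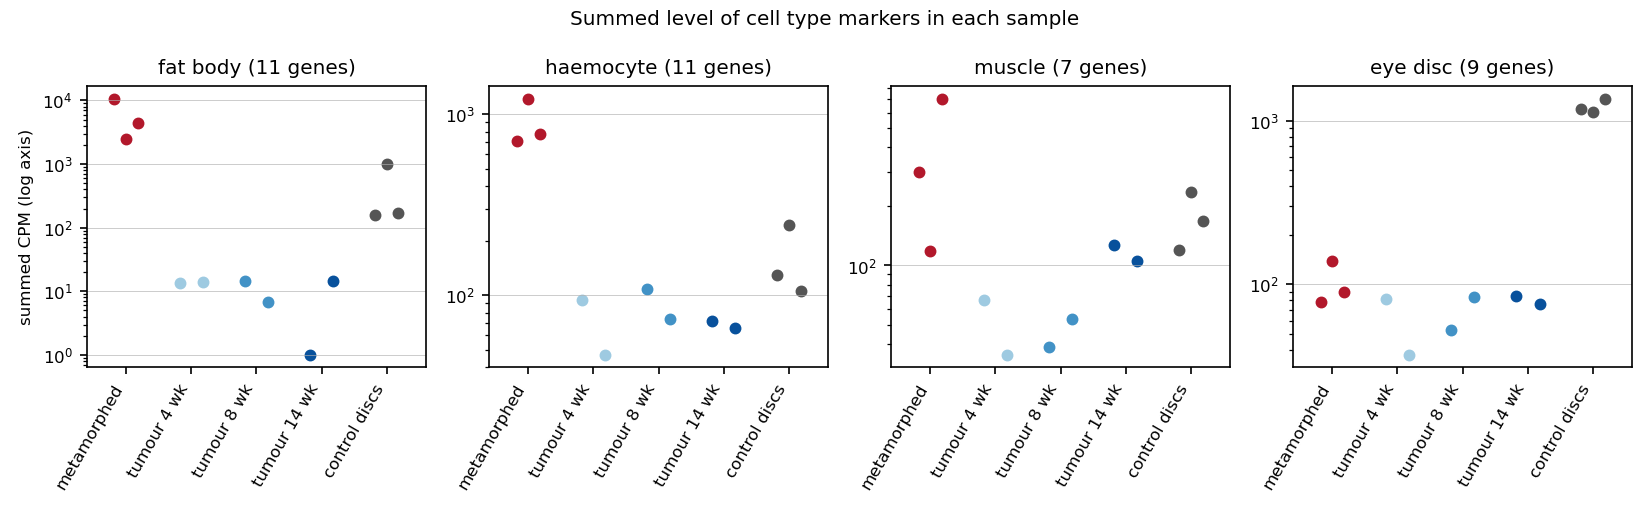
Summed CPM (log axis) of fat body, haemocyte, muscle and eye disc marker genes in each sample, with 1 point per sample and the groups in columns. The 3 metamorphed samples hold 2490 to 10604 CPM of fat body markers and the 6 tumours 1.01 to 14.5 CPM, while eye disc markers are highest in the 3 control discs, at 1135 to 1362 CPM.

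In metamorphed cells most messengers of the pathway, among them those of the ligand, the proteases and the inhibitor Cactus, were more abundant than in control discs. Against control discs, 7 of the 10 genes were higher (*spz*, *modSP*, *grass*, *psh*, *SPE*, *nec* and *cact*) and none was lower, with a median log2 difference of 3.05 beside -0.03 for all genes tested. In this comparison 40.6% of all genes tested were called, with 21.6% higher and 19% lower. Against tumours, all 10 genes were higher, with a median log2 difference of 5.36 beside 0.11 for all genes, while 46.4% of all genes tested were called and 28.5% were higher. Tumours had 6 of the 10 genes lower than control discs (*spz*, *Tl*, *modSP*, *grass*, *nec* and *dl*) and none higher, with a median log2 difference of -1.13 beside -0.19 for all genes, where 36% of all genes tested were called, with 21.6% lower and 14.4% higher. An F-test of limma over the 5 groups called 10 of 10 genes, where 55.9% of all genes were called. Without control replicate 1, the shallowest library, 8 genes were higher in metamorphed cells than in control discs, with *Dif* added, and 5 were lower in tumours, with *nec* lost. These comparisons share samples, so they are not independent of each other.

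Judged by the samples alone, every metamorphed sample stood above every tumour for all 10 genes, a pattern that 23.8% of all genes showed. Every metamorphed sample stood above every control disc for 9 of the 10, all but *Tl*, where 27.3% of all genes did so. Every tumour stood below every control disc for 5 genes, where 19.1% of all genes did so.

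**Figure D2:**
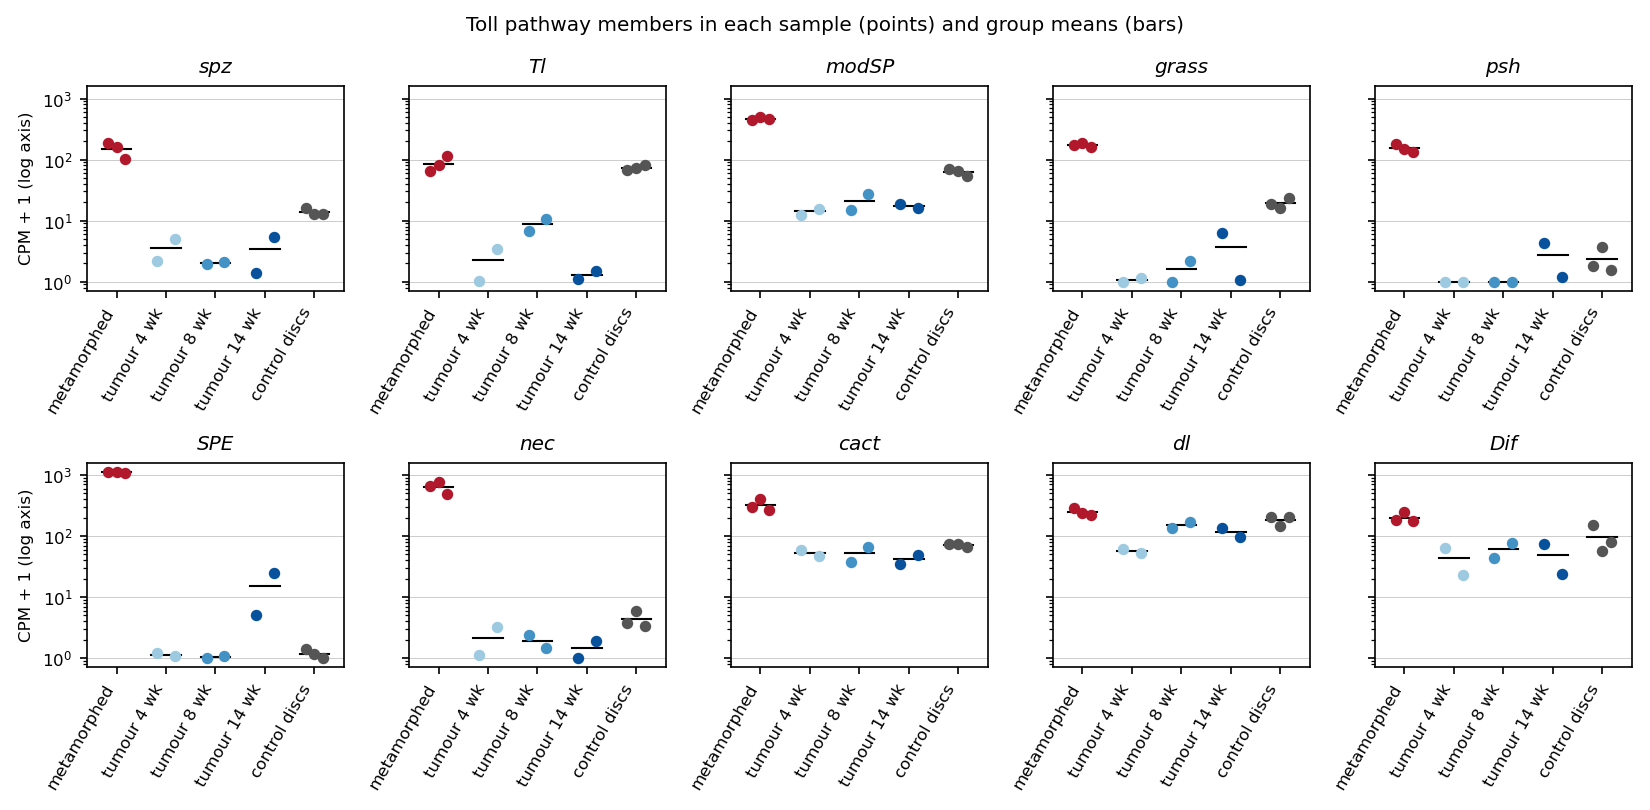
CPM + 1 (log axis) of the 10 Toll pathway genes in each sample, with 1 point per sample and a bar at the group mean. The metamorphed samples lie above all other samples in every panel except that of *Tl*, where they overlap the control discs, and *SPE* stands at 1073 to 1128.5 CPM in metamorphed cells, at 4.12 and 23.9 CPM in the 14-week tumours and at 0.392 CPM or less in all other samples.

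Of the ligand and the receptor, the ligand gene passed the test between metamorphed cells and control discs and the receptor gene did not. *spz* (FBgn0003495, chromosome 3R, 27064990 to 27070070, reverse strand, dm6), which encodes the precursor of Spätzle, stood at 185, 159 and 102 CPM in metamorphed cells, at 1.19 and 3.92 CPM in the 4-week tumours, 0.946 and 1.13 CPM in the 8-week tumours, 0.364 and 4.47 CPM in the 14-week tumours, and at 14.9, 12.05 and 11.8 CPM in control discs. The 3 kinds of tissue did not overlap: metamorphed cells were highest, control discs came next, and all 6 tumours were lowest. Metamorphed cells exceeded control discs in *spz* by 3.39 on the log2 scale (standard error 0.57, limma, adjusted p = 0.00035), and the difference of tumours to control discs was -2.40 (standard error 0.49, adjusted p = 0.0024). The fall was called at each age, with log2 differences of -2.08 at 4 weeks, -2.77 at 8 weeks and -2.34 at 14 weeks. The 8-week call held in 21 of 25 other settings and was lost with limma-voom (adjusted p = 0.094), with quantile normalization (0.063) and without either 8-week tumour (0.089 and 0.069).

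*Tl* (FBgn0262473, 3R, 26799041 to 26842403, forward strand), the gene of the receptor Toll, stood at 63.7, 80.1 and 111 CPM in metamorphed cells, at 0.0409 and 2.45 CPM in the 4-week tumours, 5.79 and 9.71 CPM in the 8-week tumours, 0.121 and 0.474 CPM in the 14-week tumours, and at 65.9, 72.1 and 79.5 CPM in control discs. Metamorphed cells and control discs overlapped, and all 6 tumours lay below both. The log2 difference of tumours to control discs was -4.74 (standard error 0.43, limma, adjusted p = 4e-06), the largest fall among the 10 genes. Between metamorphed cells and control discs the difference was 0.19 with a 95% interval of -0.88 to 1.27 (adjusted p = 0.79), so a change of up to about that size in either direction cannot be told from none. Its sign turned in 3 settings, at -0.31 with CPM of total reads, -0.0468 with quantile normalization and -0.0167 without metamorphed replicate 3. Among the ages, the 8-week tumours kept the most *Tl*, with a log2 difference to control discs of -3.10, and did not overlap the 4-week and 14-week tumours, whose differences were -5.27 and -5.83. The F-test of limma over the ages, chosen after the values had been seen, gave *Tl* an adjusted p = 0.16 (0.0015 unadjusted), which does not pass.

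The 4 proteases and the serpin were all higher in metamorphed cells than in control discs, with no overlap of samples. ModSP, at the head of the cascade, takes up signals from recognition proteins. *modSP* (FBgn0051217, 3R, 16652446 to 16655662, reverse strand) stood at 445, 500 and 463 CPM in metamorphed cells, at 11.5 and 14.7 CPM in the 4-week tumours, 13.7 and 26.0 CPM in the 8-week tumours, 17.5 and 14.97 CPM in the 14-week tumours, and at 67.8, 64.8 and 51.8 CPM in control discs. It was the only protease of the 4 with over 10 CPM in every sample, and the 3 kinds of tissue did not overlap. The log2 difference was 2.92 between metamorphed cells and control discs (standard error 0.31, limma, adjusted p = 7.5e-06) and -1.88 between tumours and control discs (standard error 0.27, adjusted p = 0.00016).

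Grass is a clip-domain protease that acts after ModSP. *grass* (FBgn0039494, 3R, 27157948 to 27159781, forward strand) stood at 171, 186 and 162 CPM in metamorphed cells, at 0 and 0.134 CPM in the 4-week tumours, 0 and 1.17 CPM in the 8-week tumours, 5.33 and 0.0677 CPM in the 14-week tumours, and at 17.6, 14.9 and 22.4 CPM in control discs. In tumours it was at 3 reads or fewer in 4 of the 6 samples, with 29 reads in the second 8-week tumour and 132 in the first 14-week tumour. The log2 difference of tumours to control discs was -3.58 (standard error 0.53, limma, adjusted p = 0.00023). Metamorphed cells were above control discs by 3.19 (standard error 0.62, adjusted p = 0.0010). On the log2 CPM as deposited the adjusted p was 0.071, and this was the only one of 25 settings in which *grass* did not pass.

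Persephone is cut and set free by the proteases of invading microbes. *psh* (FBgn0030926, chromosome X, 18484487 to 18486921, reverse strand) stood at 176, 151 and 134 CPM in metamorphed cells, at 0 in both 4-week and both 8-week tumours, at 3.27 and 0.203 CPM in the 14-week tumours, and at 0.784, 2.72 and 0.574 CPM in control discs. Metamorphed cells stood far apart from all other samples, while tumours and control discs were both near the floor. The log2 difference of metamorphed cells to control discs was 6.13 (standard error 0.56, limma, adjusted p = 2.1e-06) and that of tumours to control discs was -0.73 (95% interval -1.78 to 0.31, adjusted p = 0.26). With so few reads the size of the tumour difference followed the scale, and it passed at -2.46 with a pseudocount of 0.1, at -2.86 on the log2 CPM as deposited and at -4.01 with limma-voom.

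SPE, the Spätzle-processing enzyme, is the last protease of the chain. *SPE* (FBgn0039102, 3R, 23686255 to 23688147, forward strand) stood at 1128.5, 1119.5 and 1073 CPM in metamorphed cells, at 0.204 and 0.0890 CPM in the 4-week tumours, 0 and 0.0809 CPM in the 8-week tumours, 4.12 and 23.9 CPM in the 14-week tumours, and at 0.392, 0.154 and 0 CPM in control discs. In reads, these were 63238, 79881 and 65352 in metamorphed cells, 102 and 353 in the 14-week tumours, at most 5 in any other tumour, and 1, 5 and 0 in control discs. The log2 difference of metamorphed cells to control discs was 9.89 (standard error 0.56, limma, adjusted p = 5.1e-08), the largest among the 10 genes. Over all tumours the difference to control discs was 1.02 (standard error 0.48, adjusted p = 0.12), which did not pass. It averaged the 14-week tumours with 2 ages near 0, and passed with an adjusted p of 0.012 both with quantile normalization and without the first 14-week tumour. *SPE* shares 107 exon bases, 8.45% of its own, with *CG18754* on the same strand, whose mean level was 2.44 ± 1.14 CPM in metamorphed cells (SD, n = 3), 0.186 ± 0.304 CPM in tumours (n = 6) and 0.141 ± 0.218 CPM in control discs (n = 3).

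The serpin Necrotic restrains the branch of the cascade that runs through Persephone. *nec* (FBgn0002930, 2R, 7156477 to 7158241, reverse strand) stood at 651, 762 and 492 CPM in metamorphed cells, at 0.123 and 2.23 CPM in the 4-week tumours, 1.39 and 0.485 CPM in the 8-week tumours, 0 and 0.881 CPM in the 14-week tumours, and at 2.74, 4.88 and 2.34 CPM in control discs. The serpin gene was higher in metamorphed cells, as the protease genes were, with a log2 difference to control discs of 7.22 (standard error 0.54, limma, adjusted p = 5e-07). All 6 tumours were below all 3 control discs, by a log2 difference of -1.30 (standard error 0.47, adjusted p = 0.045). That call was lost in 10 of 12 fits with a sample left out and in 5 other settings, with adjusted p-values between 0.019 and 1, and the difference was 0.0030 with quantile normalization. The gene lies within *pk*, on the other strand, with 0 shared exon bases.

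**Figure D3:**
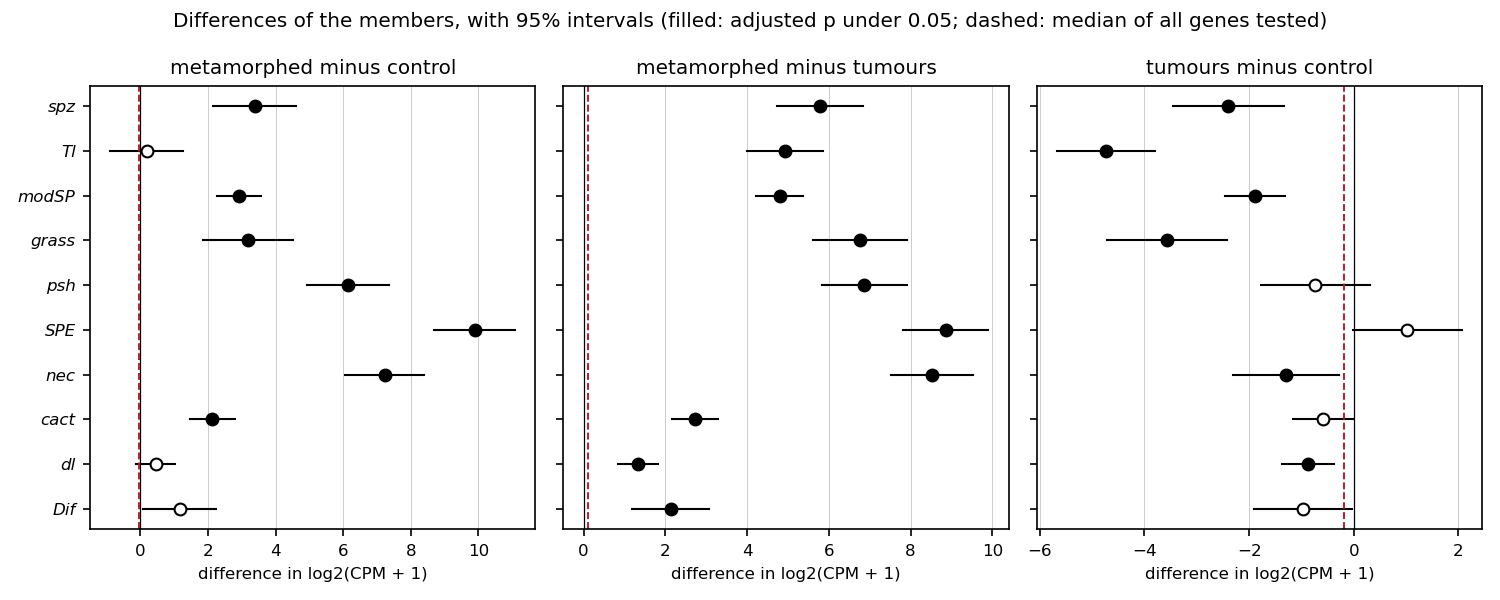
Differences in log2(CPM + 1) of the 10 genes, with 95% intervals, in metamorphed cells against control discs (left), metamorphed cells against tumours (middle) and tumours against control discs (right). Filled points passed an adjusted p of 0.05, and the dashed line is the median of all genes tested. *SPE* (9.89), *nec* (7.22) and *psh* (6.13) lie farthest to the right against control discs, and *Tl* (-4.74) and *grass* (-3.58) farthest to the left in tumours.

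Inside the cell, the differences between metamorphed cells and control discs were smaller than those of the cascade genes. *cact* (FBgn0000250, 2L, 16313036 to 16326207, reverse strand) encodes Cactus, the IκB-type inhibitor that holds Dorsal and Dif in the cytoplasm. It stood at 295, 398 and 267 CPM in metamorphed cells, at 59.0 and 45.8 CPM in the 4-week tumours, 36.2 and 66.5 CPM in the 8-week tumours, 34.3 and 47.7 CPM in the 14-week tumours, and at 74.1, 73.6 and 65.7 CPM in control discs. Metamorphed cells were well above the rest, and the second 8-week tumour reached into the range of the control discs. The log2 difference was 2.13 between metamorphed cells and control discs (standard error 0.30, limma, adjusted p = 9.5e-05) and -0.59 between tumours and control discs (standard error 0.26, adjusted p = 0.10). The difference of tumours turned to 0.14 once the trend with transcript length was removed. *cact* shares 62 exon bases, 1.87% of its own, with the cell cycle gene *fzy* on the other strand, which these libraries do not mark, and *fzy* averaged 1.16 ± 0.339 CPM in metamorphed cells (SD, n = 3), 42.8 ± 10.8 CPM in tumours (n = 6) and 40.3 ± 1.26 CPM in control discs (n = 3).

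*dl* (FBgn0260632, 2L, 17436830 to 17450364, reverse strand), the gene of Dorsal, stood at 292, 238 and 220 CPM in metamorphed cells, at 59.8 and 52.1 CPM in the 4-week tumours, 135 and 170 CPM in the 8-week tumours, 132 and 94.8 CPM in the 14-week tumours, and at 204, 144 and 203 CPM in control discs. The 4-week tumours were lowest and the 8-week tumours overlapped the control discs. Tumours differed from control discs by -0.88 on the log2 scale (standard error 0.23, limma, adjusted p = 0.011), and the difference was 0.0224, with an adjusted p of 0.95, once the trend with transcript length was removed. By age, the 4-week tumours passed (-1.68, adjusted p = 0.0012), while the 8-week tumours (-0.26, adjusted p = 0.67) and the 14-week tumours (-0.69, adjusted p = 0.11) did not. Metamorphed cells were above control discs by 0.45 (95% interval -0.12 to 1.03, adjusted p = 0.20), which did not pass. The difference was 1.01 (adjusted p = 0.0045), which passes, with the length trend removed, -0.0571 with CPM of total reads and -0.0889 with quantile normalization.

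*Dif* (FBgn0011274, 2L, 17413248 to 17433161, reverse strand) encodes the factor that, with Dorsal, carries the Toll signal in larvae and adults. It stood at 183, 242 and 175 CPM in metamorphed cells, at 63.2 and 22.3 CPM in the 4-week tumours, 42.8 and 76.2 CPM in the 8-week tumours, 72.1 and 23.0 CPM in the 14-week tumours, and at 153, 56.9 and 77.9 CPM in control discs. Control discs spread over a 2.69-fold range, wider than for *dl* (1.42-fold) or *cact* (1.13-fold), and overlapped the tumours. Neither tumours (-0.97, standard error 0.43, limma, adjusted p = 0.099) nor metamorphed cells (1.16, standard error 0.50, adjusted p = 0.081) passed the test against control discs, while metamorphed cells were above tumours by 2.13 (standard error 0.43, adjusted p = 0.0012). The call against control discs appeared in 6 of 25 settings for metamorphed cells and in 2 of 25 for tumours. *Dif* shares 252 exon bases, 4.42% of its own, with *CG15141* on the other strand, which averaged 29.0 ± 13.1 CPM in metamorphed cells (SD, n = 3), 56.5 ± 20.5 CPM in tumours (n = 6) and 58.3 ± 11.7 CPM in control discs (n = 3).

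Per kilobase of exon, which allows a rough comparison of different genes, the order of the cascade changed between tissues. The length used merges all annotated exons of a gene and can exceed that of the transcript expressed, so the order of genes within a tissue is approximate. Metamorphed cells held most *SPE* (874 CPM per kb), followed by *nec* (389), *modSP* (205), *grass* (124), *cact* (96.3), *psh* (93.3), *spz* (62.8), *dl* (38.9), *Dif* (35.2) and *Tl* (16.4 CPM per kb). The last protease was thus the most abundant messenger of the 10 and the receptor the least. Control discs held most *dl* (28.6 CPM per kb) and *modSP* (26.9), then *cact* (21.4), *Dif* (16.9), *Tl* (13.9), *grass* (13.2), *spz* (5.46), *nec* (2.03), *psh* (0.826) and *SPE* (0.144 CPM per kb). In tumours the intracellular genes were on top, with 16.7 CPM per kb of *dl*, 14.5 of *cact* and 8.77 of *Dif*, while of the extracellular genes and the receptor only *modSP* (7.16) exceeded the 3.74 CPM per kb of *SPE*, a mean over samples that ran between 0 and 18.9. The ratio of *cact* to the sum of *dl* and *Dif*, all per kilobase, was 1.15, 1.503 and 1.23 in metamorphed cells, between 0.311 and 1.15 in tumours and 0.380, 0.685 and 0.437 in control discs, which is given as a description without a test.

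**Figure D4:**
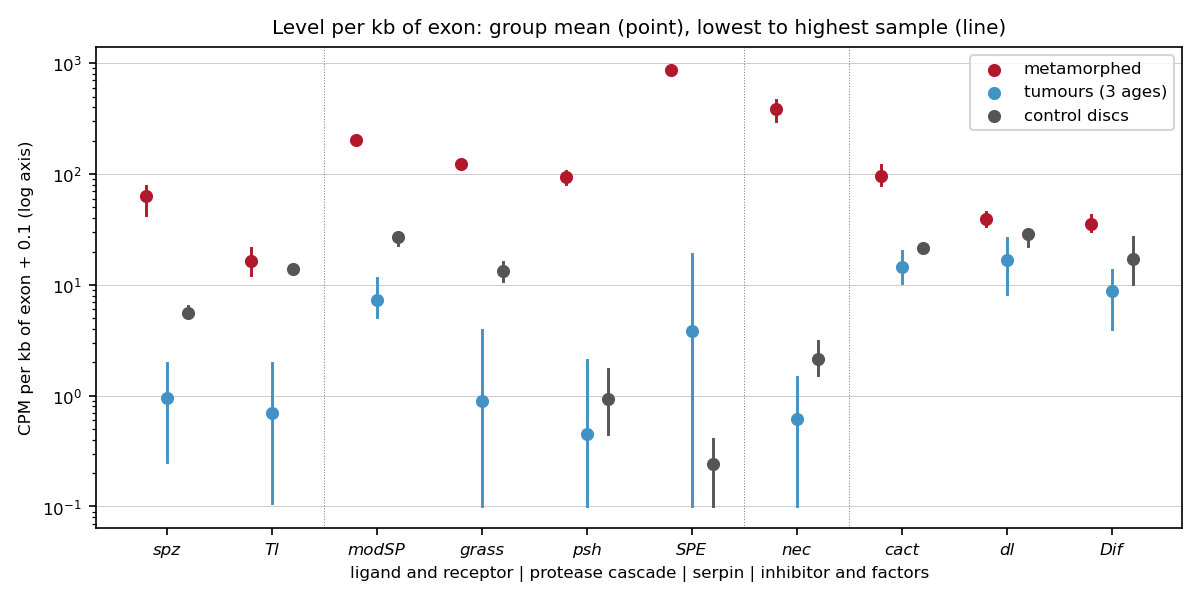
CPM per kb of exon + 0.1 (log axis) of the 10 genes in the order of the pathway, for metamorphed cells, tumours of all ages and control discs, with a point at the mean and a line between the lowest and the highest sample. *SPE* is highest in metamorphed cells (874 CPM per kb) and lowest in control discs (0.144 CPM per kb), while *cact*, *dl* and *Dif* lie closest together across the 3 tissues.

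Among the ages, *SPE* was the gene that passed the test against control discs in the higher direction, at 14 weeks. Against control discs, *SPE* was higher at 14 weeks by 3.27 on the log2 scale (standard error 0.62, limma, adjusted p = 0.0024), with differences of -0.03 at 4 weeks and -0.17 at 8 weeks that did not pass. The 14-week call held in 24 of 25 other settings, with an adjusted p of 0.064 in a fit of the groups compared alone, and the difference was 2.13 without the second 14-week tumour and 4.41 without the first. Between 14 and 4 weeks the difference in *SPE* was 3.302 (standard error 0.68), but with an adjusted p of 0.11 (limma, 0.00031 unadjusted) it did not pass, and 0 of the 10 genes were called in that comparison, where 0.0983% of all genes were called. At an unadjusted p under 0.05 there were 2, *SPE* and *dl*, beside 9.45% of all genes. The F-test over the 3 ages called 0 of 10 (0.0197% of all genes), with 3 at an unadjusted p under 0.05 (12.4% of all genes). The 14-week tumours that held *SPE* had 1.01 and 14.5 CPM of fat body markers and 72.4 and 66.0 CPM of haemocyte markers. Their haemocyte sums were within the range of the other tumours. For the fat body, 1 was below that range and 1 near its top. Their summed muscle markers, at 127 and 105 CPM, were above the 35.2 to 66.7 CPM of the younger tumours. Much of each sum was *Act57B*, at 83.3 and 49.2 CPM against 8.82 to 23.2 CPM in the younger tumours. *sls*, at 40.4 and 45.1 CPM, overlapped the younger tumours. Of the 7 muscle genes, 0 were called between 14 and 4 weeks. Control discs held 120 to 236 CPM of muscle markers, with *SPE* at 0.392 CPM or less. The part of the muscle markers in this result was not tested. By age, tumours against control discs had 5 genes lower at 4 weeks, where 34.2% of all genes were called and 21% were lower. At 8 weeks 4 genes were lower, where 12.5% of all genes were called and 9.84% were lower, and at 14 weeks 4 were lower and 1 was higher, where 26.6% of all genes were called, 14.9% as lower and 11.7% as higher. *spz*, *Tl*, *modSP* and *grass* were lower at every age. With 1 of the 2 tumours of an age left out, the 8-week count was 1 (*Tl*) without replicate 1, where the lone sample is assumed to vary like the other groups.

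The genes upstream of the cascade, listed here as 5 genes, encode proteins that bind bacterial or fungal wall components. Against control discs, 3 of 5 were higher in metamorphed cells and none lower (21.6% and 19% of all genes tested). They were *PGRP-SD* (270.9, 49.99 and 28.5 CPM in metamorphed cells, 1.18, 1.39 and 3.92 CPM in control discs, log2 difference 4.65, limma, adjusted p = 0.00017), *GNBP3* (2.32) and *GNBP1* (1.14), and 2 of 5 passed with CPM of total reads or quantile normalization. *PGRP-SA*, the partner of GNBP1 for Gram-positive bacteria, differed by -0.78 (adjusted p = 0.36) and did not pass. In tumours, *GNBP3* and *GNBP2* were lower than in control discs (21.6% of all genes tested), both with a log2 difference of -1.52.

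Of 7 other clip-domain and related proteases tested, 4 were higher in metamorphed cells than in control discs and none lower. Among all genes tested, 21.6% were higher and 19% lower. On the tumours and control discs alone, 6 of the 7 would have passed the filter. *spirit*, named as a protease upstream of SPE in an RNA interference screen in flies, stood at 569, 520 and 361 CPM in metamorphed cells, at 0 reads in all 6 tumours and at 11.4, 5.498 and 10.7 CPM in control discs, with a log2 difference of 5.60 between metamorphed cells and control discs (limma, adjusted p = 1e-06). *Ser7* (3.53) came next, with *ea* (2.86), the gene of Easter, which cleaves Spätzle in the embryo. *Ser7* was at 0 reads in all tumours and control discs. It passed the filter only through metamorphed cells and so had to differ, and no weight rests on its call. *gd*, which acts before Easter in the embryo, went the other way. It stood at 0 reads in metamorphed cells, at 4.33 to 19.6 CPM in tumours and at 0.392, 1.08 and 0 CPM in control discs. In tumours it was higher than in control discs by 3.46 (limma, adjusted p = 0.00012). It passed the filter through its level in tumours, which favours this call, so no weight rests on the call. *ea* was the other protease higher in tumours (1.13), and *spirit*, *Hayan* (-2.55) and *MP1* (-1.70) were lower there. Among all genes tested, 14.4% were higher in tumours and 21.6% lower.

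Of 6 other serpins tested, 5 were higher in metamorphed cells than in control discs and none lower (21.6% and 19% of all genes tested). The largest differences were those of *Spn42Dd* (5.03), *Spn27A* (2.81), which restrains Easter and the melanization cascade, and *Spn77Ba* (2.14). In tumours 3 of 6 were lower than in control discs (21.6% of all genes tested), led by *Spn77Ba* (-4.25), *Spn28Dc* (-2.04) and *Spn27A* (-1.91).

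The other Spätzle-type ligands and the other Toll-family receptors were lower or did not pass in metamorphed cells against control discs. Of 4 ligand genes tested, none passed as higher in metamorphed cells against control discs and *NT1* was lower, with 0 reads in all 3 metamorphed samples and 11.8, 9.39 and 20.1 CPM in control discs. All 4 were lower in tumours than in control discs, where 21.6% of all genes tested were lower. The log2 differences were -3.79 for *NT1*, -3.24 for *spz6*, -2.66 for *spz3* and -2.26 for *spz4*. Without the control discs, 3 of the 4 would have passed the filter. *NT1* passed through its level in control discs and so had to differ, and no weight rests on its calls. Of 4 receptors tested, *Toll-7*, *Tollo* and *Toll-6* were lower in metamorphed cells than in control discs, by log2 differences of -5.76, -3.87 and -2.02 (limma, adjusted p = 1.3e-05, 0.00013 and 0.022). Among all genes tested, 19% were lower in metamorphed cells than in control discs. The *Toll-6* call held in 18 of 25 other settings and was lost, with an adjusted p of 0.10, once the trend with transcript length was removed. *Toll-7* stood at 9.30, 0.0280 and 5.14 CPM in metamorphed cells, at 229 to 814 CPM in tumours and at 119, 334 and 256 CPM in control discs. *Toll-6* stood at 0.0535, 0 and 5.63 CPM in metamorphed cells and at 0 reads in all 6 tumours. In control discs it stood at 12.2, 5.87 and 4.21 CPM. Like *Tl*, it was lower in tumours than in control discs (limma, adjusted p = 0.0013). Without the control discs, 2 of the 4 receptors would have passed the filter, *Toll-7* and *Tollo*. *Toll-6* passed through its level in control discs, which favours calls as lower, so no weight rests on its calls. *Toll-7* and *Tollo* did not pass the test in tumours, with differences to control discs of 0.92 (adjusted p = 0.23) and 0.55 (adjusted p = 0.42).

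Between the receptor and Cactus, 3 of 11 genes were more abundant in metamorphed cells than in control discs and 1 was lower, beside 21.6% higher and 19% lower among all genes tested, so the share is near the background, and with CPM of total reads 0 were higher and 2 lower. The 3 were *tub* (1.64, limma, adjusted p = 0.028) and *Myd88* (1.32, adjusted p = 0.0044), which encode adaptors of the receptor complex, and *pll* (1.41, adjusted p = 0.0059), which encodes its kinase. *Myd88* stood at 133, 167 and 130 CPM in metamorphed cells, at 30.8 to 59.7 CPM in tumours and at 48.2, 59.6 and 62.8 CPM in control discs. The gene that was lower was *Gprk2* (-1.98), a kinase gene that was also lower in tumours (-1.57). The differences of these 3 adaptor and kinase genes in tumours against control discs were 0.25 for *tub*, -0.34 for *Myd88* and -0.09 for *pll*. None of these differences passed. In tumours 5 of the 11 were lower than in control discs (21.6% of all genes tested), led by *Gprk2*, *Traf6* (-1.19) and *Pli* (-1.18). None of the 11 was lower there once the trend with transcript length was removed.

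The humoral target genes of the pathway include the Bomanins and other small secreted peptides of the immune response. Of 23 genes listed, 21 were in the table and 17 passed the filter, and all 17 were higher in metamorphed cells than in control discs and than in tumours (16 of 17 with quantile normalization). Among all genes tested, 21.6% were higher than in control discs and 28.5% higher than in tumours. On the tumours and control discs alone 3 of the 17 would have passed the filter. The others, *BomT3* and *BomBc2* among them, passed through their level in metamorphed cells and so had to differ. No weight rests on the count or on their calls. *Bbd* stood at 4300, 2251 and 2538 CPM in metamorphed cells, at 0 reads in 5 tumours and 0.0677 CPM in the other, and at 2.74, 5.22 and 3.25 CPM in control discs (log2 difference to control discs 9.30, limma, adjusted p = 1.5e-08). Next to it came *BomT3* (7.47), a gene of the tailed Bomanins, *BaraA1* (7.06), which encodes a precursor of antifungal peptides, and, against tumours, *BomBc2* (8.25). *BaraA1*, *Bbd* and *BomBc2* were lower in tumours than in control discs (21.6% of all genes tested), with log2 differences of -1.66, -2.19 and -1.28. *Drs*, the antifungal peptide gene most used as a readout of Toll, was not analysed here.

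The embryonic targets of Dorsal include genes of mesoderm and neurogenic ectoderm. Of 13 listed, 8 passed the filter, 6 of them also without the control discs. In metamorphed cells 6 of the 8 were lower than in control discs and none higher (19% and 21.6% of all genes tested). *ths*, which encodes an FGF ligand, stood at 0, 10.99 and 0.673 CPM in metamorphed cells and at 0.404 CPM or less in tumours. In control discs it stood at 45.1, 31.0 and 77.3 CPM. *ths* and *vnd* passed the filter through their level in control discs, which favours calls as lower, so no weight rests on calls of either. The largest decreases in metamorphed cells after *ths* were those of *tld* (-3.32) and *rho* (-3.15). In tumours 4 of 8 were lower than in control discs (21.6% of all genes tested), *ths* (-5.49), *htl* (-3.95) and *sog* (-3.30) among them. *twi*, *sna* and *zen* were below 1 CPM in all 12 samples.

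The IMD pathway, the other NF-κB route of fly immunity, was called in part. In metamorphed cells 7 of 17 genes were higher than in control discs and 1 was lower (21.6% and 19% of all genes tested). The median log2 difference of the 17 was 0.42 (-0.08 with CPM of total reads) beside 3.05 for the 10 Toll genes. The largest were *pirk* (6.56), an inhibitor of the pathway, *PGRP-LC* (3.78), its main receptor, and *imd* (2.52). *PGRP-LC* stood at 739, 633 and 657 CPM in metamorphed cells, at 4.00 to 38.4 CPM in tumours and at 35.7, 35.7 and 87.2 CPM in control discs. The gene of the factor itself, *Rel*, was higher by 2.04 (limma, adjusted p = 0.0011). In tumours 1 of 17 was higher than in control discs, *imd* (1.17), and 1 was lower, *PGRP-LC* (-1.90). Among all genes tested, 14.4% were higher in tumours and 21.6% lower. *akirin* was the gene that was lower in metamorphed cells (-0.78).

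**Figure D5:**
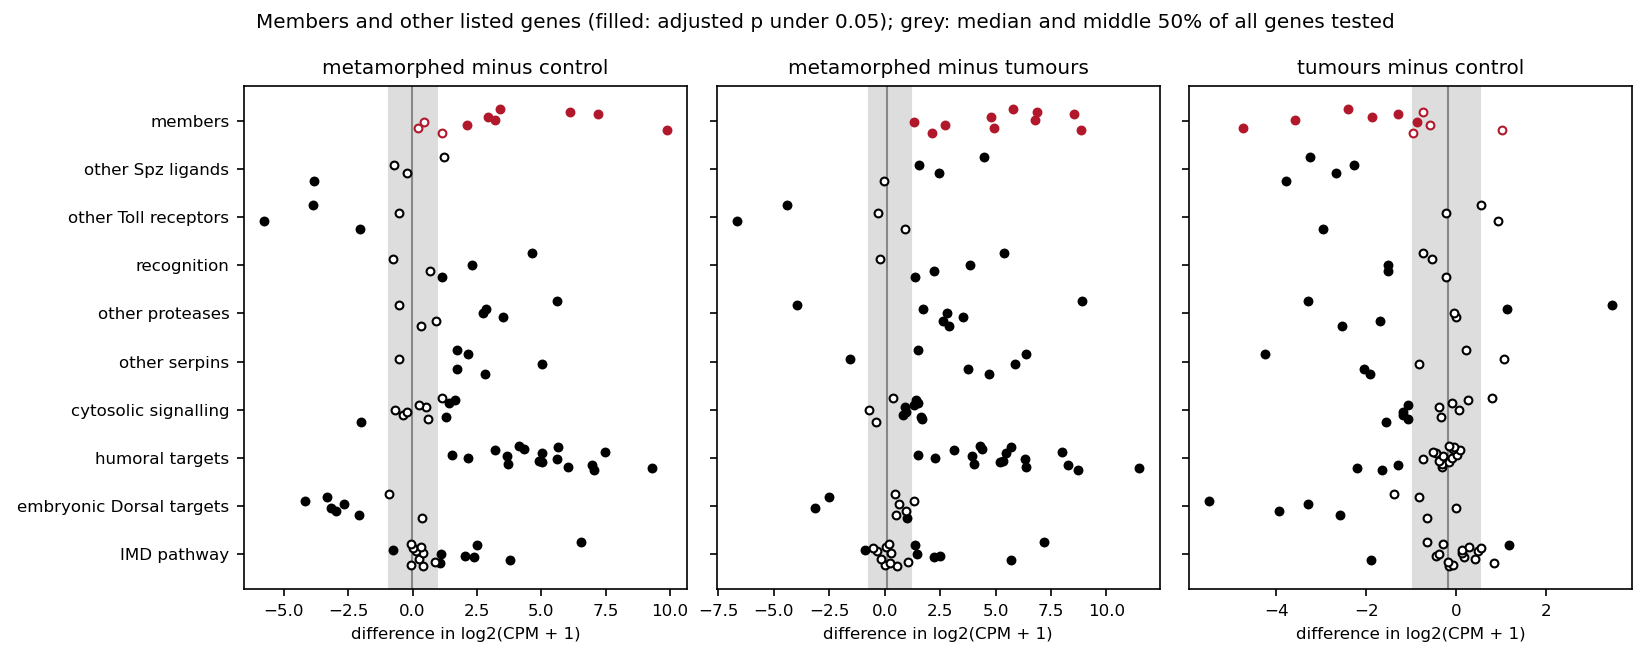
Differences in log2(CPM + 1) of the 10 genes (red) and of 9 other lists (black), with 1 point per gene tested, in metamorphed cells against control discs (left), metamorphed cells against tumours (middle) and tumours against control discs (right). Filled points passed an adjusted p of 0.05, and the grey band holds the middle 50% of all genes tested. All 17 humoral targets lie to the right of 0 in the first 2 panels, but most of them passed the filter only through metamorphed cells. *Toll-7* (-5.76) lies farthest to the left of the receptors against control discs, and most IMD genes lie within or near the band.

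The spread among metamorphed samples was smaller for the members than for the yolk protein genes, but it overlapped that of the other fat body markers. Among the 3 metamorphed samples, *Yp1*, *Yp2* and *Yp3* differed 8.74-fold, 9.04-fold and 8.90-fold between the lowest and the highest sample, while the 10 Toll genes differed between 1.05-fold (*SPE*) and 1.82-fold (*spz*). Of the 8 other fat body markers, 5 differed by no more than *spz*, the lowest being *Fbp1* (1.35-fold), and 3 by more, *Lsp1alpha* (2.13-fold), *apolpp* (2.05-fold) and *Apoltp* (1.96-fold). Among control discs, replicate 2 had the highest fat body sum, at 988 CPM against 158 and 170 CPM in the others. In that sample *psh* (2.72 CPM) and *nec* (4.88 CPM) were at their highest of the 3, and *spz*, *modSP*, *grass* and *SPE* were not. Control replicate 1 held 2 reads of *psh*, 7 of *nec* and 1 of *SPE*, so the ranks of these genes are imprecise. The part of fat body or blood cell RNA in the differences of the Toll genes was not tested.

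For each gene, the 3 genes with the most similar pattern over the 12 samples were found by Pearson's correlation of log2(CPM + 1), given as a description, since all points share the libraries and their groups. *spz* was closest to *Tsf1* (0.99), a gene of an iron-binding protein of the haemolymph, and *Tl* to *ovo* (0.97), a transcription factor gene that, like *Tl*, was low in tumours and at similar levels in the other tissues, with means of 92.5 CPM in metamorphed cells (n = 3), 12.3 CPM in tumours (n = 6) and 101 CPM in control discs (n = 3). *nec* was closest to *P5CS* (0.99) and *Bbd* (0.99), so a humoral target stood among its nearest genes. The nearest genes were *knrl* (0.99) for *modSP*, *CG7530* (0.99) for *grass*, *Gs2* (0.98) for *psh*, *Gclm* (0.99) for *SPE*, *Tps1* (0.98) for *cact*, *CG17598* (0.97) for *dl* and *Cdep* (0.96) for *Dif*. None of the 10 genes was among the 3 nearest of another.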

How the data were processed

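RNA of 12 samples was sequenced by the authors with SMARTSeq2 and NexteraXT libraries, which do not mark strand. Per the labels and the methods, reads were aligned to dm6 with TopHat2 2.0.12 and Bowtie2 2.2.3, and the authors deposited log2 CPM made with edgeR 3.16.5 in R 3.3.1, normalized for library size, for 17521 FlyBase identifiers in a single table. The read counter and the annotation are not given in the sources used here. The design had assumed linear CPM. The prior count (2 reads on average) was subtracted from the deposited log2 values, which gave whole reads within 0.01 for 100% of the values, and linear CPM with the authors' normalization factors (0.611 to 1.24).

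Symbols, positions and exon lengths came from Ensembl release 115 (BDGP6, the dm6 assembly), in which 17215 identifiers had a symbol. The filter kept the 10177 genes that reached 1 CPM in 2 or more samples. Their log2(CPM + 1) entered a linear model in limma 3.58.1 (R 4.3.3), with the variance prior allowed to follow the mean level (limma-trend) and Benjamini-Hochberg adjusted p-values. The methods' maSigPro was replaced by this model. The steps were tested on simulated data. No 2 samples of a group were duplicates. Tables and figures were made with NumPy 2.4.6, matplotlib 3.10.9 and pandas 2.3.3 under Python 3.11.15.

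The 10 genes, the 9 other gene lists and the 4 marker lists were chosen with earlier results of these data known. All 10 genes are named. Of each other list, the rule names up to 3 genes with the largest increase and 3 with the largest decrease among those called in each main comparison, plus *Myd88*, *tub* and *pll*, and some others are named that were chosen after their values had been seen. Listed genes *18w*, *spheroide*, *Drs*, *BaraA2* and *PPO1* were not matched and were not analysed here. No sequences are shown. Alternatives covered the filter, the pseudocount (0.1, 4), the groups entering a fit, a replicate block, the scaling, limma-voom on recovered reads, the log2 values as deposited, removal of the trend with exon length (lowess, span 0.3), a threshold of 0.01 and leaving out each sample.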

Additional observations from a re-analysis of the deposited data

Results flagged for a closer look

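*psh* was set apart in 1 of the 6 tumours. The first 14-week tumour held 3.27 CPM (81 reads), the second 0.203 CPM (3 reads) and the other 4 tumours 0 reads. On log2(CPM + 1), the gap between the highest tumour and the next was 0.873 of the whole range, above the critical value of 0.625 for 6 samples. Chance gives such a gap in about 1 of 20 groups of normally distributed values, and 10 groups were tested, 1 for each gene. With 4 of the 6 tumours tied at 0 reads, this rate need not hold for *psh*. The same tumour had the highest *grass* level of the 6 (5.33 CPM, 132 reads) and the lowest fat body marker sum (1.01 CPM), while *SPE* was higher in the other 14-week tumour (23.9 CPM) than in this one (4.12 CPM).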

How the results depend on the processing

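Over 25 alternative settings, 20 of the 30 differences of single genes kept their direction and their side of the threshold, among them all 10 of metamorphed cells against tumours. Of 750 values, 710 were on the same side, 16 lost the call, 15 gained it and 9 changed sign. These 9 were, in tumours against control discs, *psh* (0.0587) and *nec* (0.0030) with quantile normalization and *cact* (0.14) and *dl* (0.0224) with the length trend removed, and, in metamorphed cells against control discs, *Tl* with CPM of total reads (-0.31), quantile normalization (-0.0468) and without metamorphed replicate 3, and *dl* with CPM of total reads (-0.0571) and quantile normalization (-0.0889). With samples left out, *Tl* ran between -0.0167 (without metamorphed replicate 3) and 0.38 (without metamorphed replicate 1). Removal of the length trend adjusts genes of every exon length, which is 3324 bases for *cact* and 6432 for *dl*. The cause of the 9 sign changes was not tested. The number of genes called, of 10, was 4 to 7 in tumours against control discs, 6 to 9 in metamorphed cells against control discs and 9 to 10 among the 5 groups. With samples left out it was 4 to 5 at 4 weeks, 1 to 4 at 8 weeks, 4 to 6 at 14 weeks and 0 to 1 between 14 and 4 weeks (0 to 2 among the ages). At 4 weeks it was 3 with the length trend removed. At 14 weeks it was 8 with CPM of total reads, 2 in a fit of the groups compared alone and 3 with limma-voom. Scaling moved the median of all genes to between -0.43 and 0.07 in tumours against control discs (-0.19), between -0.46 and -0.03 in metamorphed cells against control discs (-0.03) and between -0.23 and 0.14 in metamorphed cells against tumours (0.11). In tumours against control discs the share of higher calls was 39.9%, and 55.4% with quantile normalization, 50.3% with the length trend removed and 26% with total reads. That share was 53.2% in metamorphed cells against control discs (36.3% with total reads) and 61.3% against tumours (43.4% with quantile normalization and 51.7% with the length trend removed). Without the filter, 0 genes of all were called between 14 and 4 weeks, against 10 with it. Replicate numbers are shared by the groups, and same-numbered samples correlated at -0.02 on average over 21 pairs (3 of them over 0.1), beside 0.01 for others. With 2 samples in a group, deviations from the group mean mirror each other, so these pairs are not independent. Same-numbered tumours correlated at 0.27 between 4 and 14 weeks, -0.11 between 4 and 8 weeks and -0.20 between 8 and 14 weeks. Whether same-numbered tumours share an origin cannot be told from these values. With the replicate block, the 10 genes gave 6, 7 and 10 calls in the 3 main comparisons, and 1 gene of all was called between 14 and 4 weeks. Depth limits the genes near the floor, *psh*, *nec* and *SPE* in tumours and control discs, where control replicate 1 holds 2072498 reads.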
